A study of Mus musculus with 16 samples.

Results

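Polysomal and subpolysomal RNA of insulin-treated AML12 cells that carried a scramble shRNA were compared on 8 one-colour Agilent arrays, 4 for each fraction, out of 16 arrays in the series. The 8 arrays were taken by their titles, which give the shRNA, the fraction and a replicate number. AML12 is a non-tumourigenic mouse hepatocyte line, labelled male, and all 8 samples carried the scramble shRNA, received doxycycline, which switches the shRNA on, and received insulin for 1 h. The labels give the insulin dose as 100 nM in one place and as 100 mM in another. The other 8 arrays hold the same fractions of cells with an shRNA against eIF6 and serve here as a second set of cultures. The medium contained serum, an insulin supplement and dexamethasone, and no fraction without added insulin or total RNA was analysed here, so what follows ranks the RNAs of a growing, insulin-treated line of cells that cannot be taken as liver.

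A sucrose gradient separates RNA by the number of ribosomes it carries. An mRNA with several ribosomes sediments with polysomes, whereas free mRNA, mRNA in small ribonucleoprotein particles, and mRNA with a single ribosome stay in the lighter, subpolysomal part. RNAs that are not translated by cytosolic ribosomes, such as spliceosomal RNAs and the mRNAs translated inside mitochondria, are known to stay light, which makes them a natural reference for the low end of such a ranking. The quantity used throughout is the log2 ratio, the mean normalized log2 signal of a gene on the 4 polysomal arrays minus that on the 4 subpolysomal arrays. Each array was brought to the same distribution of signals before the comparison, so a ratio of 0 marks the middle of the ranking, not equal amounts of RNA in both fractions. A gene is called higher or lower on polysomes when the Benjamini-Hochberg adjusted p of limma's test was below 0.05.

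Between 20556 and 22488 probes were well above background on the subpolysomal arrays and between 22573 and 24068 on the polysomal arrays. Saturated spots numbered 0, and precision rests on having 4 arrays per fraction. Over all genes, arrays of one fraction correlated with each other at 0.988 to 0.994 and arrays of different fractions at 0.953 to 0.967. Before normalization the median log2 signal of the kept probes was 6.98 to 7.48 on the subpolysomal arrays and 8.39 to 9.28 on the polysomal arrays. The study's methods describe the 4 replicates as biological. The p-values and standard errors rest on the spread between replicates within all 4 groups of the series, the eIF6 shRNA arrays included.

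Of 19365 genes tested, 6133 were higher on polysomes (31.7%) and 5498 were lower (28.4%), which makes 60.1% called in either direction. The median log2 ratio was 0.04, the 5th percentile was -1.62 and the 95th percentile was 1.36, against a median standard error of 0.15. The 4 polysomal and the 4 subpolysomal values did not overlap for 10566 genes (54.6%). The split depended on the scaling of the arrays. When each array was scaled to its 75th percentile, 4111 genes were higher and 8478 were lower, and the median of all genes moved to -0.34. When the arrays were scaled to spike-in probes, 12661 were higher and 413 lower, with a median of 1.46. The order of the genes moved less, with a correlation of 0.939 across genes with the quantile normalized ratios under either scaling. Directions are therefore given relative to the median of all genes. Counts of higher and lower members of a list stand beside 31.7% higher and 28.4% lower over all genes. Where a list's highest or lowest member is named below, it is that among members well above background on all 8 scramble arrays.

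**Figure D1:**
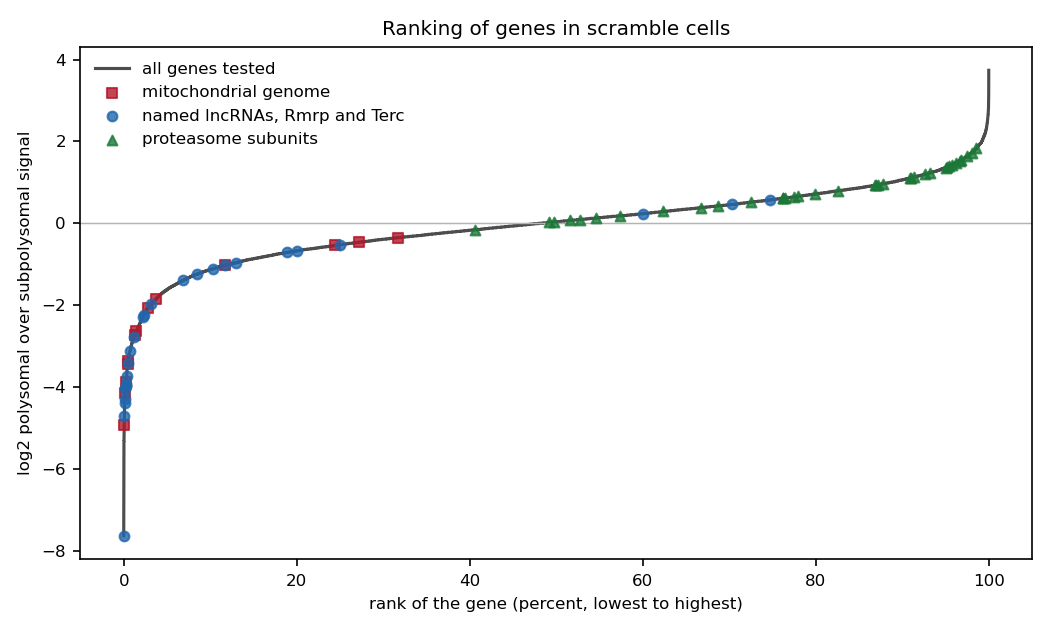
Log2 polysomal over subpolysomal signal of the 19365 genes tested (vertical axis) against their rank in percent (horizontal axis), with 3 gene lists marked on the curve. The genes of the mitochondrial genome (median -2.63) and the named long noncoding RNAs (median -2.27, with Rmrp and Terc) lie mostly at the low end, and the proteasome subunits (median 0.93) lie in the upper part.

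The cells were first compared with the markers of their labelled type. Of 14 hepatocyte markers, 9 were well above background on all 8 arrays. Hnf4a, a transcription factor that defines hepatocytes, had mean log2 signals of 12.70 and 13.16 in the subpolysomal and polysomal fraction, and the keratin Krt18 had 17.87 and 18.17. Albumin (Alb) was well above background on 0 of 4 subpolysomal and 3 of 4 polysomal arrays, and Apoa1 was not well above background on any of the 8, so these defining secreted products were absent or near the limit of detection. Ttr, which carries thyroid hormone and retinol-binding protein, was detected on all 8 arrays and higher on polysomes (log2 ratio 1.22). Signal of other cell types' markers was present as well. Of 12 stellate cell and fibroblast markers, 8 were well above background on all 8 arrays, among them Col1a2 at 16.06 and 16.52 and Vim at 14.13 and 13.93, while Lrat and Lum were below background on all 8. Of 8 markers of bile duct and progenitor cells, 6 were detected on all 8 arrays, with Krt19 at 13.39 and 13.09. Of 10 macrophage and leukocyte markers 4 were, and Clec4f and Lyz2 were among those below background on every scramble array. Of 8 endothelial markers 2 were detected on all 8, and Cdh5, Lyve1, Stab2 and Tek on none. The mean log2 signal of the tested markers was 8.35 to 8.45 (subpolysomal) and 8.16 to 8.58 (polysomal) for hepatocytes, 10.57 to 10.74 and 10.94 to 11.58 for stellate cells and fibroblasts, 8.76 to 9.17 and 8.85 to 9.16 for bile duct and progenitor cells, 7.20 to 7.39 and 6.70 to 7.06 for macrophages and leukocytes, and 6.49 to 6.89 and 6 to 6.36 for endothelium. Tested markers numbered 14, 10, 7, 7 and 3 in this order. Markers that failed the detection filter dropped out, so these means cannot be compared between cell types. Both fractions come from cultures of the same line and treatment, and whether a marker is carried by few cells or weakly by all cannot be told apart in bulk RNA.

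The lowest ratios belonged to small nuclear and nucleolar RNAs. Rmrp, the RNA of the ribonuclease that processes ribosomal RNA, had log2 signals of 13.79, 13.04, 13.57 and 13.28 on subpolysomal arrays 1 to 4 and of 5.48, 5.86, 6.49 and 5.29 on polysomal arrays 1 to 4. All 4 subpolysomal values were above all 4 polysomal ones, a 199-fold difference (log2 ratio -7.64 ± 0.30, SE, n = 4 per fraction, limma adjusted p = 5.3e-11). The probe lies at mm9 chr4:43505847-43505906 on the minus strand. Rnu3b1, a U3 RNA that guides cleavage of pre-rRNA, had a log2 ratio of -6.40, and Snora74a, a box H/ACA small nucleolar RNA, had -5.32. The spliceosomal U2 RNA Rnu2-10 had -5.66 and the U1 RNA Rnu1b6 had -4.95, with signals of 14.44 to 15.24 off and 9.48 to 10.47 on polysomes. Rnu12, the U12 RNA of the minor spliceosome, was closer to the middle at -1.82. All 4 genes that RefSeq lists as snRNA and both listed as snoRNA were lower on polysomes.

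Long noncoding RNAs followed. Malat1, an abundant nuclear RNA of splicing speckles, had log2 signals of 11.35, 11.38, 11.39 and 11.51 in the subpolysomal and 6.60, 6.43, 6.88 and 6.86 in the polysomal fraction. The groups were separated by several log2 units, 26.3-fold in all (-4.72 ± 0.11, limma adjusted p = 2.49e-13). Neat1, the scaffold of nuclear paraspeckles, had 15.48 to 15.58 and 11.03 to 11.22, a 21.1-fold difference (-4.40 ± 0.08, limma adjusted p = 9.78e-14). The Malat1 probe lies at mm9 chr19:5795713-5795772 and the Neat1 probe at chr19:5842564-5842623, both on the minus strand. Dancr (-4.30), which hosts a small nucleolar RNA, Mir17hg (-3.97), the host of a microRNA cluster, and H19 (-3.94), an imprinted RNA, lay near them, H19 well above background on 4 subpolysomal arrays and 1 polysomal array.

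The host genes of small nucleolar RNAs have spliced transcripts that serve mainly as carriers of the RNAs in their introns. Gas5, which also begins with a pyrimidine tract like ribosomal protein mRNAs, had log2 signals of 11.06, 10.87, 10.77 and 10.87 in the subpolysomal and 7.02, 6.81, 7.21 and 6.66 in the polysomal fraction, without overlap (-3.97 ± 0.14, 15.6-fold, limma adjusted p = 1.64e-11). Its 3 kept probes gave -4.17 to -3.82. The other hosts ran from Snhg7 at -4.05 through Snhg6 (-3.74), Snhg12 (-3.42), Snhg3 (-3.13), Snhg1 (-2.78) and Snhg10 (-2.25) to Snhg5 at -1.39. Snhg9, well above background on the 4 polysomal arrays only, was not called. Of 26 genes tested in the list of these hosts and other named noncoding RNAs (Rmrp and the telomerase RNA Terc included), 22 were lower, 1 was higher and 3 were not called, with a median of -2.27. The exception was Tug1 at 0.57 (± 0.11, limma adjusted p = 0.000393), whose polysomal values of 9.14 to 9.59 lay above its subpolysomal values of 8.57 to 8.95.

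The pattern extended to RNA classes. Among 548 genes with a noncoding RefSeq accession, 14.1% were higher and 44.3% lower, with a median of -0.39, against 36.2% and 24.8% among 14327 genes with an mRNA accession (median 0.12). The log2 ratio was below -2 for 10.4% of the noncoding and for 1.48% of the mRNA accessions. By RefSeq biotype, 658 lncRNA genes had a median of -0.40, while 130 transcribed pseudogenes had -0.03. Genes with a RefSeq match numbered 15432, and the 3933 without one had a median of -0.24. Of the 14011 genes whose kept probes were all well above background on the 8 arrays, 77.4% had an mRNA accession and 2.4% a noncoding one. Among the 100 lowest of them these numbers were 24 and 22, and among the 100 highest 65 and 1. Where normexp replaced the scanner's background correction, the median of the noncoding accessions was -0.09. Among called genes with noncoding accessions and a gene symbol (clone and Gm names left out), detected on all 8 arrays without overlap, the highest were H2-Q5 (1.53), Pdxk-ps (1.42), H2afy3 (1.40) and Hmgb1-rs17 (1.34), names of a histocompatibility gene and of pseudogenes or related sequences whose probes may also read transcripts of close relatives.

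Transcripts of the mitochondrial genome, which are translated by mitochondrial ribosomes, were the lowest of the lists that code for protein. Of 13 measured, 12 were lower on polysomes and none was higher (median -2.63), and the ratios spanned more than 4 log2 units. ND1, a subunit of complex I, had log2 signals of 15.95, 15.88, 15.95 and 16.25 in the subpolysomal and of 10.96, 10.72, 11.49 and 11.16 in the polysomal fraction. The groups did not overlap and differed 30.4-fold (-4.93 ± 0.13, limma adjusted p = 1.36e-12). COX1, the catalytic subunit of cytochrome oxidase, had 18.17, 18.12, 18.07 and 18.10 against 17.73, 17.64, 17.84 and 17.84, which also did not overlap but differed only 1.28-fold (-0.35 ± 0.08, limma adjusted p = 0.00104). COX1 was among the brightest genes, and with 75th percentile scaling its ratio, less the shift of all genes, was -1.41. Between these ends lay ATP8 (-4.16), ND3 (-3.88), ND4L (-3.43), ATP6 (-3.37), ND2 (-2.72), ND5 (-2.63), ND4 (-2.08), COX3 (-1.84), CYTB (-1.02) and COX2 (-0.46). ND6, the gene of the light strand, was dim and was not called (-0.54 ± 0.31, limma adjusted p = 0.152). The files place the probes of 7 of the 13 genes on chromosome M and those of the other genes on chromosome 1 (ATP8 at mm9 chr1:24621488-24621547), where a near-identical nuclear copy could share the signal.

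**Figure D2:**
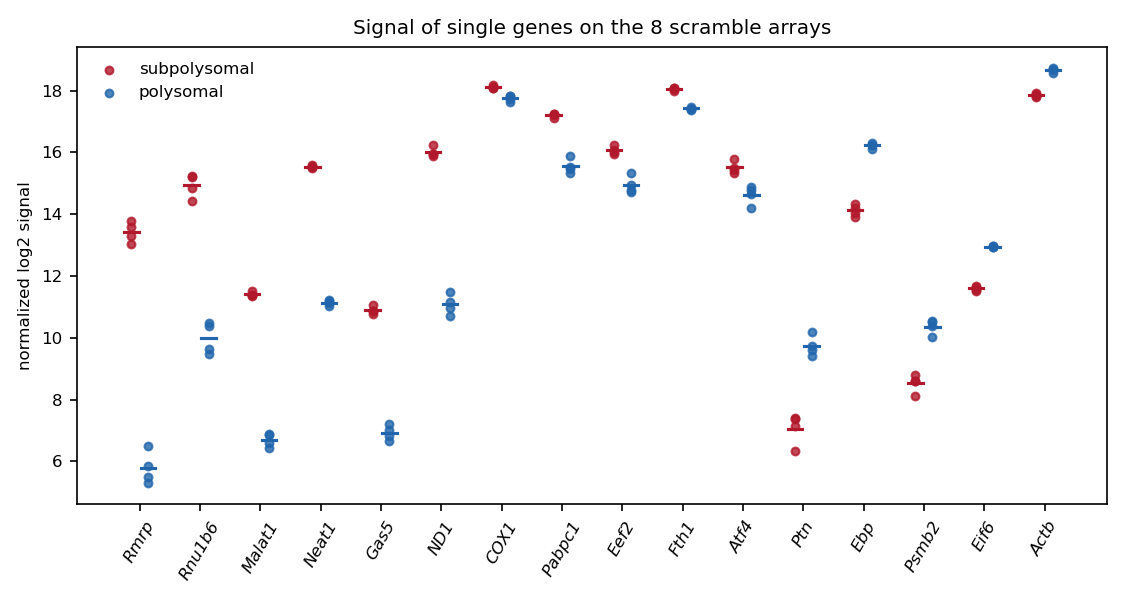
Normalized log2 signal (vertical axis) of 16 genes on the 4 subpolysomal (red) and 4 polysomal (blue) scramble arrays, each point 1 array and each bar the mean. Rmrp, Malat1 and ND1 drop by several units on polysomes, Eef2 (-1.12), Atf4 (-0.90) and Fth1 (-0.63) by less, and Ptn, Ebp and Psmb2 are higher on polysomes with no overlap of the arrays.

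Nuclear genes of the same respiratory chain complexes lay on the other side. Of 93 tested, 60 were higher, 10 were lower and 23 were not called (median 0.63). Ndufc2, a subunit of complex I, had log2 signals of 12.30, 12.57, 12.43 and 12.42 in the subpolysomal and 14.37, 14.28, 14.34 and 14.13 in the polysomal fraction. The polysomal values were all higher (1.85 ± 0.08, 3.59-fold, limma adjusted p = 1.59e-10). The lowest was Uqcr10, a small subunit of complex III, at -1.83 ± 0.15 (limma adjusted p = 1.07e-07), with 3 probes between -2.06 and -1.64. Of 76 mRNAs for mitochondrial ribosomal proteins, 44 were higher and 13 lower (median 0.40), from Mrpl14 at 1.45 to Mrpl42 at -1.97. The nuclear and the mitochondrial genes for one set of complexes had medians of opposite sign.

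The most polysomal named mRNAs were a mixed group. Ptn, the secreted growth factor pleiotrophin, came first, with log2 signals of 7.16, 7.40, 7.37 and 6.32 in the subpolysomal and 9.72, 10.20, 9.61 and 9.41 in the polysomal fraction. The groups did not overlap, and the ratio was 2.67 ± 0.24 (6.38-fold, limma adjusted p = 1.98e-07). Tceal5, a small relative of elongation factor SII, had 2.64 ± 0.14, with 5.02 to 5.60 off and 7.93 to 8.18 on polysomes. Enzymes of detoxification and redox balance were among the next names, Gsta4 (2.49) and Gstt3 (2.30), both glutathione transferases, Gclm (2.34), the modifier subunit of glutamate cysteine ligase, and Dhrs1 (2.50), a short-chain dehydrogenase. The others were Immp2l (2.50), a protease of the mitochondrial inner membrane, Dync2li1 (2.46), a light intermediate chain of the ciliary dynein, Chst8 (2.44), a Golgi sulfotransferase, Rfxank (2.44), a partner of the MHC class II regulator RFX, Emc9 (2.35), a subunit of the ER membrane complex, and Rhox5 (2.27), a homeobox protein. A call and no overlap of the fractions were conditions for being named here, and limma adjusted p lay between 4.87e-10 and 1.98e-07. Their subpolysomal signals were modest, from 5.39 for Dync2li1 to 8.02 for Emc9, and with normexp background correction the ratio of Tceal5 was 1.52, that of Immp2l 1.54, that of Dync2li1 1.53 and that of Chst8 1.61.

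Among the 12 lowest names, 2 have an mRNA accession. Gla, the lysosomal alpha-galactosidase, had log2 signals of 15.89, 15.81, 15.62 and 15.70 off and 11.72, 11.46, 11.64 and 11.55 on polysomes, without overlap (-4.16 ± 0.10, 17.9-fold, limma adjusted p = 2.49e-13). Mfsd2b, a sphingosine-1-phosphate transporter of blood cells, had 15.85 to 15.94 and 11.50 to 11.92 (-4.14 ± 0.10, limma adjusted p = 2.69e-13). Each value comes from 1 probe, the Gla probe at mm9 chrX:131122895-131122954 and the Mfsd2b probe at chr12:4869246-4869305, both on the minus strand. A second Mfsd2b probe did not pass the detection filter, and when all probes were kept the ratio of Mfsd2b was -1.99. Which transcript these bright probes read was not tested.

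The proteasome, the protease that degrades ubiquitinated proteins, was among the most uniformly polysomal lists. Of 37 subunits, 30 were higher on polysomes, none was lower and 7 were not called (median 0.93). The largest ratios were those of the beta and alpha ring subunits Psmb2 (1.83), Psmb5 (1.54), Psma4 (1.52) and Psmb3 (1.48), and of the interferon-inducible Psmb8 (1.73) and Psmb9 (1.64). Psmb2 had 8.60, 8.81, 8.60 and 8.12 off and 10.52, 10.53, 10.37 and 10.03 on polysomes, with no overlap (limma adjusted p = 9.97e-08). The large regulatory subunits Psmd2 (0.02) and Psmd1 (-0.16 ± 0.22, limma adjusted p = 0.543) were not called. Psmd1 had polysomal values of 12.15 to 12.19 on arrays 1 to 3 and of 12.94 on array 4, and without replicate 4 it was called lower at -0.36.

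Lysosomal and membrane system mRNAs also lay above the middle. Of 34 lysosomal genes, 24 were higher and 1 was lower (median 0.74), from Scarb2, a membrane receptor of lysosomes, at 1.94 to the sialidase Neu1 at -0.32. Neu1 turned to 0.15 with 75th percentile scaling, less the shift of all genes. The proton pump that acidifies lysosomes had 14 of 18 subunits higher and 1 lower (median 0.65), from Atp6v0c at 1.31 to Atp6v1g2 at -1.21. Of 42 genes of ER translocation, folding and glycosylation, 25 were higher and 3 lower (median 0.44). Dnajc3, a co-chaperone of BiP, had 1.46, and Dad1, a subunit of the oligosaccharyltransferase, had -0.72, but the 2 probes of Dad1 gave -2.23 and 0.79. Of 27 cytosolic chaperones, 10 were higher and 2 lower (median 0.22), with the Hsp90 activator Ahsa1 at 1.48 and the constitutive Hspa8 at -0.84 ± 0.19 (limma adjusted p = 0.00118). Without replicate 4 the median of this list was -0.06.

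mRNAs for the ribosome itself lay around the middle. They start with a terminal oligopyrimidine (TOP) tract, a cytosine followed by pyrimidines, through which the mTOR pathway controls their translation. Of 79 cytosolic ribosomal protein genes, 25 were higher, 34 lower and 20 not called, with a median of -0.11. Rpsa, the laminin receptor of the small subunit, was lowest among those above background on all arrays, with 15.89 to 16.03 off and 14.30, 14.30, 14.40 and 14.33 on polysomes. No values overlapped (-1.65 ± 0.07, limma adjusted p = 1.26e-10), although its 4 probes ranged from -2.75 to -0.67. The stalk protein Rplp0 had -0.88 and Rps6, the substrate of the S6 kinases, -0.26 ± 0.08 (limma adjusted p = 0.00862), a call that was lost without replicate 1 (-0.26), 2 (-0.25) or 3 (-0.23) and that turned to 0.09 with its brightest probe. These are bright genes, with a mean of 16.44 to 16.48 off and 16.20 to 16.40 on polysomes, and their place depended on the processing. With 75th percentile scaling the median of the list, less the shift of all genes, was -0.73, and with the brightest probe of each gene it was 0.08. Many ribosomal protein genes have processed pseudogenes, and probes may not tell them apart.

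Other TOP mRNAs were lower as a list. Of 18 tested, 3 were higher, 11 lower and 4 not called (median -0.48, and -0.82 with 75th percentile scaling, less the shift). Pabpc1, the cytoplasmic poly(A) binding protein, had 17.20, 17.25, 17.25 and 17.11 off and 15.45, 15.53, 15.35 and 15.88 on polysomes. The fractions did not overlap (-1.65 ± 0.14, 3.13-fold, limma adjusted p = 9.89e-08). Eef2, the translocase of elongation, had 15.94 to 16.24 and 14.71 to 15.34 (-1.12 ± 0.14), and Eef1a1, which delivers aminoacyl-tRNA, had 13.64 to 14.08 and 12.23 to 12.99 (-1.29 ± 0.19). The initiation factors Eif4b (-1.64) and Eif3f (-1.38) were also lower, whereas Eef1d, an exchange factor of elongation (1.23), and Btf3 (1.07) and Naca (0.42), the nascent polypeptide-associated pair, were higher. Tpt1, at -0.20 ± 0.06, had non-overlapping values close together, 18.35 to 18.45 and 18.12 to 18.23, and lost its call without replicate 1 (-0.19), 2 (-0.22) or 3 (-0.21). With 75th percentile scaling it kept the call, at -1.37 less the shift.

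Runs of pyrimidines near the annotated starts of these genes were found on both sides of the ranking. Windows of 28 bases around the start are given for the 4 highest and the 4 lowest genes of both TOP lists that have a run of at least 8 bases, all C or T and beginning with C, within 10 bases of a RefSeq start. The sequences are from RefSeq (GRCm38.p6), 5′ to 3′ on the strand of the gene, and the run is in capitals.
Rpl18 (log2 ratio 0.71, chr7:45718066-45718093, plus strand): aggccgCTCTTTCCCCgcccactccggc
Rps9 (0.63, chr7:3704030-3704057, plus strand): ccttgtCTCTCTTTgtctcgggcctgag
Rps26 (0.53, chr10:128626481-128626508, minus strand): ccggatCCTCTTTCgagtcttggctcca
Rplp2 (0.36, chr7:141447641-141447668, plus strand): cagcgtCTTCCTTTCgccgccggacgcc
Rpl39 (-0.91, chrX:37085195-37085222, minus strand): tagcgaCTTCTTCTaatcgcgttcttcc
Eef1a1 (-1.29, chr9:78481708-78481735, minus strand): gctccgCCCTCTTCCCgagggtggggga
Rps15a (-1.30, chr7:118116126-118116153, minus strand): tgccatCTTCCCTCgccggtgagtgagt
Eif3f (-1.38, chr7:108934405-108934432, plus strand): tctaggCTCTCTCTCTTTCTCggcaaga
A window was given for 58 ribosomal protein genes and 21 of them held the run (36.2%), of which 8 were higher and 9 lower on polysomes. Over all 32851 start windows the share was 6.96%, and over the 11407 tested genes with a window it was 8.5%. Tested genes with the run had a median log2 ratio of 0.14 (970 genes) and those without it 0.09 (10437 genes). Annotated starts can miss the true first base by some positions, so the absence of the run from a window says only that these letters are not there. The runs shown began between position -5 (Eef1a1 and Rps9) and position 7 (Rpl39) relative to the annotated start. A run is therefore not shown to be the TOP tract itself.

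The factors that start translation were spread over the ranking. Of 53 genes named as initiation factors, their kinases or binding proteins, 23 were higher, 14 lower and 16 not called (median 0.21). Eif1ax, the scanning factor eIF1A, had 12.89 to 13.02 off and 14.16 to 14.54 on polysomes (1.44 ± 0.09, limma adjusted p = 7.12e-09), and Eif5a had 1.40. Eif6, the factor that keeps the large subunit from joining the small one, had 11.53, 11.55, 11.65 and 11.66 off and 12.96, 12.94, 12.96 and 12.94 on polysomes. Its fractions were far apart for their spread (1.35 ± 0.08, 2.55-fold, limma adjusted p = 2.94e-09), although its 3 probes ranged from 0.58 to 1.74. The helicase Eif4a2 was lowest at -1.84 ± 0.08 (limma adjusted p = 1.68e-10), while its paralogue Eif4a1 had -0.32. Several subunits of eIF3 were lower, Eif3f (-1.38), Eif3a (-1.16), Eif3e (-0.73), Eif3h (-0.71) and Eif3l (-0.62), and Eif3g (0.63) and Eif3i (0.54) were higher. Of 37 aminoacyl-tRNA synthetases, 9 were higher and 10 lower (median -0.10, turning to 0.22 with 75th percentile scaling, less the shift), and Farsa, a subunit of the phenylalanine enzyme, was lowest at -1.41. Of 45 genes of ribosome biogenesis, 8 were higher and 17 lower (median -0.15, turning to 0.21 in the same way), and Nop56, a core protein of box C/D particles, had -1.40 ± 0.13 (limma adjusted p = 2.84e-07).

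**Figure D3:**
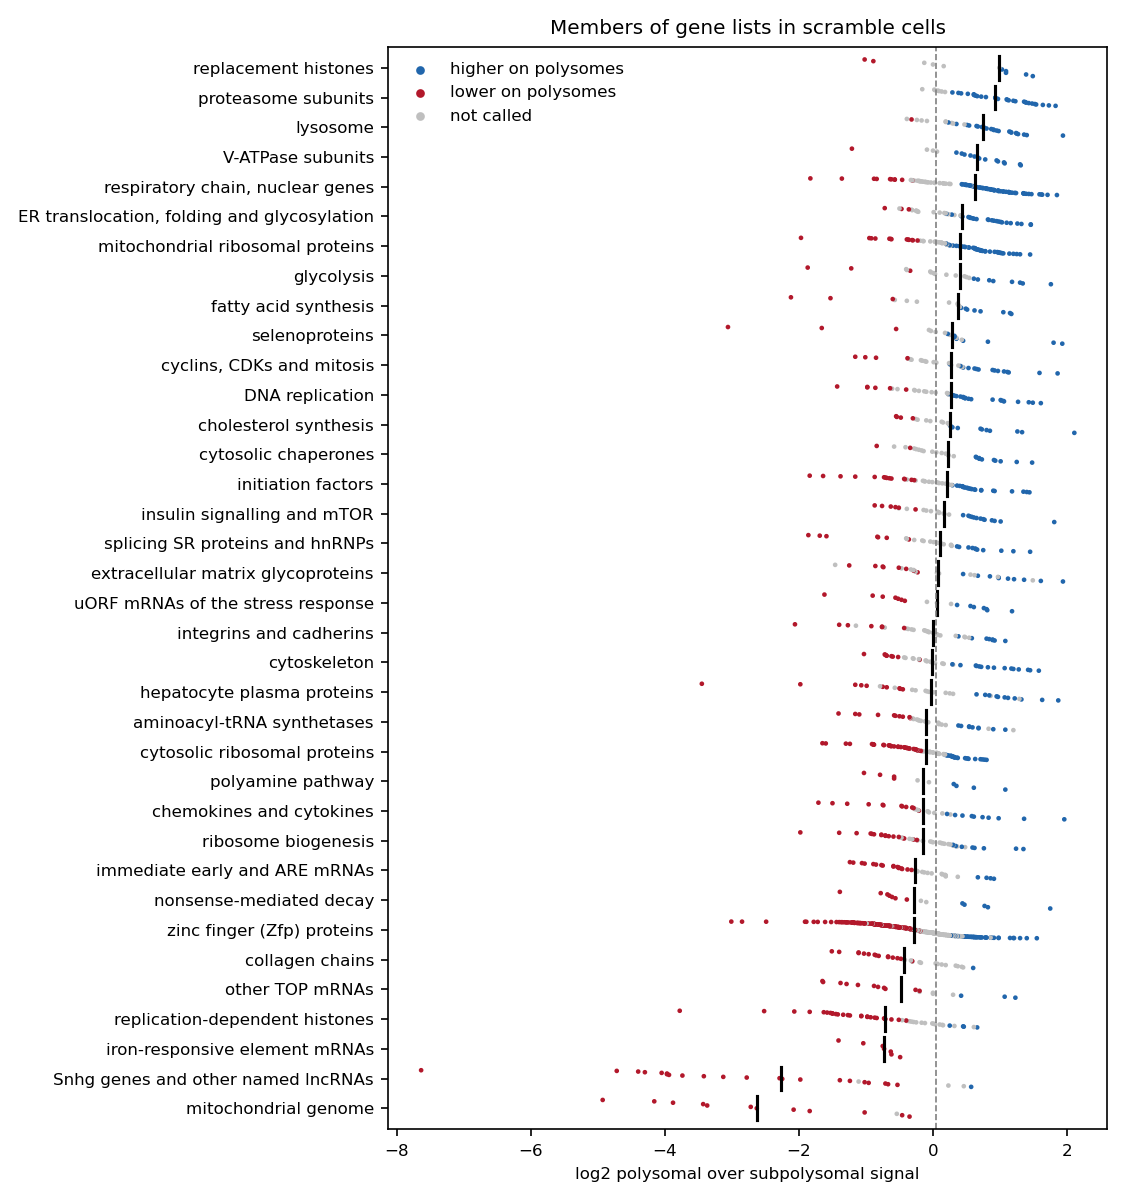
Log2 polysomal over subpolysomal signal (horizontal axis) of the members of 36 gene lists, ordered by their median (black bar), with called members in blue (higher) and red (lower) and the others in grey. The dashed line is the median of all genes, 0.04. The proteasome list has no lower member, and the 7 iron-responsive mRNAs have no higher one.

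mRNAs whose translation is known to be held back by elements in their untranslated regions were examined next. All 7 tested mRNAs with an iron-responsive element, the hairpin bound by iron regulatory proteins, were lower on polysomes (median -0.73). Fth1, the ferritin heavy chain, had 18.08, 17.99, 18.08 and 18.06 off and 17.42, 17.42, 17.48 and 17.37 on polysomes. The fractions did not overlap (-0.63 ± 0.06, 1.55-fold, limma adjusted p = 4.88e-07), and Ftl1, the light chain, had -1.04 ± 0.07 with 2 probes at -1.76 and -0.32. The size depended on the scaling, and with 75th percentile scaling, less the shift, Fth1 had -1.62 and Ftl1 -1.9. Slc40a1, the iron exporter ferroportin, was lowest at -1.41, and the hypoxia factor Epas1 had -0.75. Members with the element in the 3′ untranslated region, where it governs mRNA stability, were Tfrc (-0.49 ± 0.19, limma adjusted p = 0.0387), the transferrin receptor, whose call was lost without replicate 1 (-0.47), 2 (-0.47) or 3 (-0.53), and Slc11a2 (-0.62).

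Stress response mRNAs with upstream open reading frames lay on both sides, 7 higher and 7 lower of 17 (median 0.06, and 0.52 with 75th percentile scaling, less the shift). Ddit3, the pro-apoptotic factor CHOP, had 11.46, 11.30, 11.34 and 11.40 off and 9.80, 9.83, 9.90 and 9.50 on polysomes. It was lower without overlap (-1.62 ± 0.14, 3.07-fold, limma adjusted p = 1.59e-07). Atf4, the main transcription factor of the response, had 15.35 to 15.78 and 14.19 to 14.88 (-0.90 ± 0.15, limma adjusted p = 0.000107), with 2 probes at -1.55 and -0.25. Cebpb had -0.47 ± 0.14 (limma adjusted p = 0.0105), with ranges of 13.94 to 14.46 and 13.41 to 14.06 that overlapped, and it was not called without replicate 1 (-0.42). Cebpd, at 0.06 ± 0.11, was not called (limma adjusted p = 0.665). The haem-regulated kinase Eif2ak1 (1.18), Trib3 (0.81) and Cebpg (0.80) were higher. Genes of the polyamine pathway, several of them under translational control through frameshifting or upstream frames, were split 4 and 4 of 10. Odc1, the rate-limiting enzyme, had -0.58 ± 0.20 (limma adjusted p = 0.0198), which was -0.26 and not called without replicate 4 and -0.63 and not called without replicate 2. Its inhibitor Oaz1 had 0.61 and the antizyme inhibitor Azin1 1.08, both higher, and Sat1, which degrades polyamines, had -1.03. With 75th percentile scaling, before the shift was removed, Oaz1 was no longer called higher (0.13 less the shift). Selenoprotein mRNAs, which recode a stop codon, ran from Sephs2 (1.93), the enzyme that makes selenophosphate, to Sepw1 (-3.06 ± 0.16, 8.33-fold, limma adjusted p = 9.37e-10), with 8 of 18 higher and 3 lower. Gpx4, the lipid peroxidase, had 0.45. Under 75th percentile scaling, before the shift was removed, it was no longer called higher (0.02 less the shift).

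Short-lived mRNAs of the immediate response to growth factors lay more often on the low than on the high side, with 4 of 35 higher, 17 lower and 14 not called (median -0.27, and -0.01 with 75th percentile scaling, less the shift). Ier3 (-1.24), Ier2 (-1.19), the kinase Sgk1 (-1.06), Btg2 (-1.02) and the phosphatase Dusp1 (-0.89) were lowest. Egr1 had 12.99 to 13.46 off and 12.38 to 12.57 on polysomes (-0.75 ± 0.10, limma adjusted p = 1.83e-05), and Fos had 10.73 to 10.86 and 10.22 to 10.36 (-0.51 ± 0.07, limma adjusted p = 9.72e-06). Jun, with ranges that overlapped, had -0.46 ± 0.19 (limma adjusted p = 0.0463) and lost its call without replicate 1 (-0.40), 2 (-0.48) or 3 (-0.33). Myc was in the middle with 10.73 to 11.26 and 10.83 to 11.21 (-0.02 ± 0.14, limma adjusted p = 0.899). Atf3 was the highest of the list above background on all arrays, at 0.91. Of 32 chemokines and cytokines, 10 were higher and 12 lower, from Spp1, the matrix cytokine osteopontin (1.96), to the neutrophil attractant Cxcl1 (-1.71), and the median of -0.15 turned to 0.08 with 75th percentile scaling, less the shift.

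Histone mRNAs divided by type. Replication-dependent histone mRNAs end in a stem-loop in place of a poly(A) tail, and 27 of 47 were lower and 4 higher (median -0.71). Hist1h3g was lowest among those detected on all arrays, with 8.90, 8.65, 8.68 and 8.43 off and 6.67, 6.53, 6.78 and 6.38 on polysomes and no overlap (-2.07 ± 0.13, limma adjusted p = 6.74e-09). Hist2h2aa2 was highest at 0.66, with 2 probes at 0.25 and 1.08. Histone genes are near-identical, and their probes may share transcripts. Replacement histones, which are polyadenylated, had 5 of 11 higher and 2 lower (median 0.99), with H3f3a at 1.49 ± 0.09 and H3f3b at 1.09 ± 0.08. H2afj was lowest at -1.02, but its 2 probes gave -2.35 and 0.32. The median of the replacement histones was 0.6 among the 10 members above background on all 8 arrays. It was 0.57 with 75th percentile scaling, less the shift, and 0.14 with normexp background correction.

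Among secreted proteins, collagens stood low. Of 30 collagen chains tested, 1 was higher, 15 were lower and 14 were not called (median -0.43). The basement membrane chains Col4a1 (-1.03) and Col4a2 (-0.96), Col5a1 (-1.11) and Col7a1 (-1.11) were lower. Col1a1 had 14.34 to 14.54 off and 13.30 to 14.45 on polysomes, which overlapped (-0.67 ± 0.24, limma adjusted p = 0.025), and was not called without replicate 1 (-0.62), 2 (-0.66) or 3 (-0.48). Col1a2 had 0.45 ± 0.21 (limma adjusted p = 0.0801). Matrix glycoproteins had 10 higher and 8 lower of 30, near the shares over all genes (31.7% and 28.4%). They ran from the collagen-binding Sparc (1.61) to Thbs1 (-1.25), and fibronectin (Fn1) had 13.83 to 14.04 and 12.93 to 13.18 (-0.86 ± 0.08, limma adjusted p = 5.74e-07). Of 34 plasma proteins, 11 were higher and 10 lower (median -0.03), also near those shares. The serpin Serpinf1 was highest at 1.87 ± 0.15, followed by the haem carrier Hpx (1.63) and Ambp (1.32), and Apoe (-1.98) and the Serpina1 genes (-0.49 to -1.16) were low. The lowest was F10, coagulation factor X, with 12.12, 11.25, 11.17 and 10.87 off and 7.87, 8.23, 7.98 and 7.53 on polysomes (-3.45 ± 0.26, 10.9-fold, limma adjusted p = 3.85e-08), and -1.88 when its second, dimmer probe was kept as well. Of 37 integrins and cadherins 8 were higher and 7 lower (median 0.00), from Itgb5 at 0.92 to Itga10 at -2.06.

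Enzymes of energy and lipid metabolism lay on both sides, and their counts stand beside 31.7% higher and 28.4% lower over all genes. Of 22 glycolytic genes, 8 were higher and 3 lower (median 0.40, and 0.10 without replicate 4). Ldhb was highest at 1.76 ± 0.12 and Aldoc, the brain-type aldolase, lowest at -1.87 ± 0.15. Gapdh, read by 7 probes, had 15.83 to 16.17 off and 16.42 to 17.05 on polysomes (0.67 ± 0.13, limma adjusted p = 0.000485). With 75th percentile scaling, before the shift was removed, it was no longer called higher (0.29 less the shift). Of 25 cholesterol synthesis genes, 12 were higher and 4 lower (median 0.25). Ebp, the sterol isomerase, had 14.03, 14.33, 14.21 and 13.92 off and 16.32, 16.25, 16.11 and 16.23 on polysomes, without overlap (2.11 ± 0.12, 4.30-fold, limma adjusted p = 3e-09). Acat2 was lowest at -0.55 ± 0.18 (limma adjusted p = 0.0166), with 4.96 on polysomal array 4 and 5.67 to 5.78 on the others, and lost its call without replicate 3 (-0.46) or 4 (-0.36). Of 20 genes of fatty acid synthesis, 8 were higher and 3 lower (median 0.38). Fasn, the fatty acid synthase, was dim with 6.96 to 7.24 and 6.77 to 7.17 and was not called (-0.24 ± 0.10, limma adjusted p = 0.0601), but was called without replicate 4 (-0.28). Srebf1, its transcriptional activator, had -0.57 ± 0.28 (limma adjusted p = 0.0884) with overlapping values, and was called without replicate 4 (-0.83). Dgat2, the last enzyme of triglyceride synthesis, had 1.15, and Mlxipl, the carbohydrate-responsive factor ChREBP, was lowest at -2.12 ± 0.09 (limma adjusted p = 1.93e-10). Of 30 genes of insulin and mTOR signalling, 13 were higher and 6 lower (median 0.16), from Pik3ca, the catalytic subunit of PI3-kinase (0.88), to the eIF4E inhibitor Eif4ebp2 (-0.87).

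Regulators of transcription and of RNA were lower more often than higher in the largest list. Of 315 Zfp genes, which mostly encode zinc finger repressors, 40 were higher and 140 lower (median -0.28). Zfp658 was lowest at -3.01 ± 0.09 (8.07-fold, limma adjusted p = 4.36e-12), with 12.60 to 12.91 off and 9.53 to 9.86 on polysomes, and Zfp428 highest at 1.21. Of 32 splicing factors 11 were higher and 7 lower (median 0.11), from Hnrnpab (1.45) to Hnrnph1 (-1.69). Of 14 genes of nonsense-mediated decay 5 were higher and 7 lower, from Magoh (1.75) to Casc3 (-1.39), both of the exon junction complex. Cell cycle genes had 16 of 35 higher and 4 lower (median 0.27), with the kinase Cdk6 at 1.86 and the CDK inhibitor Cdkn1a at -1.16, whose 3 probes ranged from -3.60 to 0.15. DNA replication genes had 21 of 39 higher and 6 lower (median 0.27), from Gins4 (1.61) to the helicase subunit Mcm7 (-1.43), for which polysomal array 4 read 13.85 and the others 12.85 to 13.01. Of 40 cytoskeletal genes 15 were higher and 9 lower (median -0.01). Smooth muscle actin Acta2 had 1.58 ± 0.15, Actn4 had -1.03, and Actb, at 0.82 ± 0.10, turned to -0.30 with 75th percentile scaling, less the shift. Markers of other cell types lay on both sides. Of 7 macrophage and leukocyte markers tested 2 were higher and 3 lower, from Cd14 (0.50) to Cd68 (-2.05), and of 3 endothelial markers 1 was higher and 2 lower, with the VEGF receptor Kdr lowest at -1.61. Of 14 hepatocyte markers 4 were higher and 3 lower, from Ttr (1.22) to Foxa2, a liver transcription factor (-1.34).

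**Figure D4:**
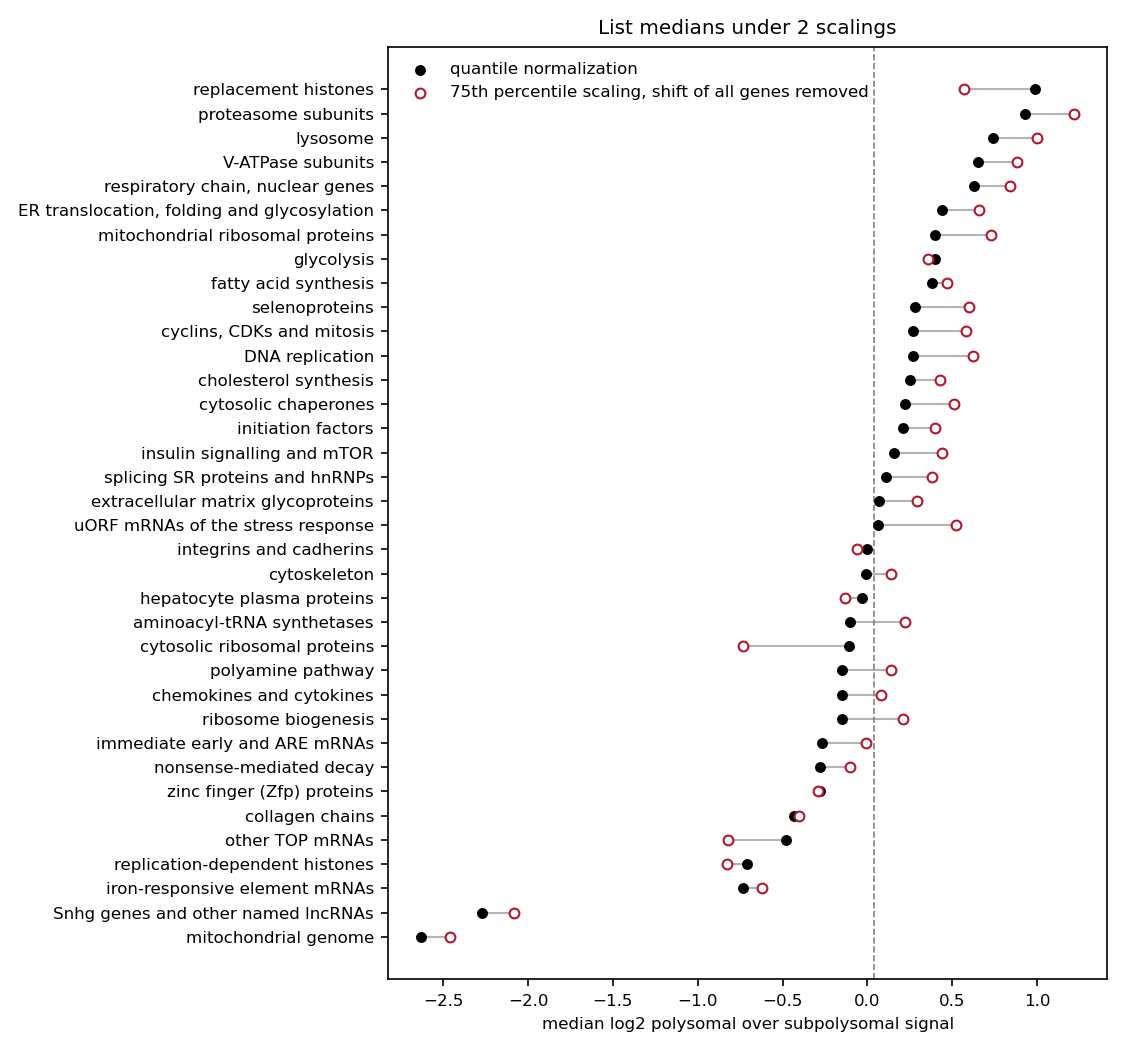
Median log2 ratio (horizontal axis) of the same 36 lists with quantile normalization (filled) and with 75th percentile scaling after removal of the shift of all genes (open). The median of the cytosolic ribosomal proteins moves from -0.11 to -0.73, while the mitochondrial genome and the named noncoding RNAs stay at the low end.

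Some genes were detected in 1 fraction only. Of the 19365 genes tested, 288 were well above background on all 4 polysomal and on none of the subpolysomal arrays, and 64 showed the reverse. The polysomal arrays were also brighter before normalization and had more probes above background. Whether this accounts for the uneven counts was not tested. For these the ratio is a bound, set against the higher of the gene's own signal and the lowest signal among probes well above background on each array (2.44 to 3.94). C1qtnf5 was at least 5.76-fold and the neuropeptide precursor Nts at least 4.74-fold higher on polysomes, and Des, a muscle intermediate filament, at least 2.77-fold. In the subpolysomal fraction Cd300lf was at least 6.96-fold and Cps1, the first enzyme of the urea cycle, at least 3.96-fold higher. C1qtnf5, Nts and Cd300lf were picked after their values had been seen.

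The ratio also varied with the length of the mRNA as far as the probes show it. The files give for each probe its position in the transcript, and for 7 of 7 mitochondrial genes this position equalled the distance of the probe from the first base of the gene within 1 base. As probes lie mostly near the 3′ end, the position is a lower limit on the length. Among 7647 genes with an mRNA accession, a single kept probe and signal above background on all 8 arrays, the median log2 ratio was 0.39 for positions 665 to 1022 and 0.32 for 1023 to 1348. It was 0.04 for 2021 to 2400 and -0.05 for 4610 to 23333. Ratios above 1 made up 22.7% of the first of these groups and 3.4% of the last. Positions up to 664 had a median of 0.12, and the rank correlation across genes was -0.14, a description in which genes are not independent. The correlation with the mean signal of the gene was 0.02.

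The ranking was compared with the same ratio in the cells with eIF6 shRNA, which shares no array with it. Across the 19365 genes the ratios correlated at 0.884 (Spearman 0.868), and at 0.938 over the 14011 genes above background on all 8 scramble arrays. Genes are not independent replicates, and the arrays share slides and one normalization, so these values describe the likeness only. Of the 6133 genes higher in scramble cells, 84.7% were called higher there and 0.8% lower, and of the 5498 lower genes 83.8% were called lower and 0.2% higher, where 60.8% of all genes were called in either direction. Both sets of calls use 1 estimate of the spread per gene, from all 16 arrays, so they are not independent. Malat1 (-4.81), Rmrp (-7.21), ND1 (-4.50), the mitochondrial genome list (median -2.16) and the proteasome list (0.67) kept their sides. The median of the replication-dependent histones was -0.12 there and that of the Zfp genes -0.03. The difference between the shRNAs was tested for each gene by the interaction term, which was called for 1.51% of all genes and for 14 of the 132 named genes. Most named genes were chosen for a high or low ratio in scramble cells, which by itself favours a difference towards the middle, so the count is not read against that of all genes. Among these, Serpinf1 had 1.87 in scramble and -0.11 in eIF6 shRNA cells (difference -1.98, limma adjusted p = 0.000145), Acta2 1.58 and -0.29 (difference -1.87, limma adjusted p = 0.000312), and Ptn 2.67 and 0.82 (difference -1.86, limma adjusted p = 0.00972). Aldoc moved the other way, from -1.87 to -0.06 (difference 1.81, limma adjusted p = 0.000403).

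**Figure D5:**
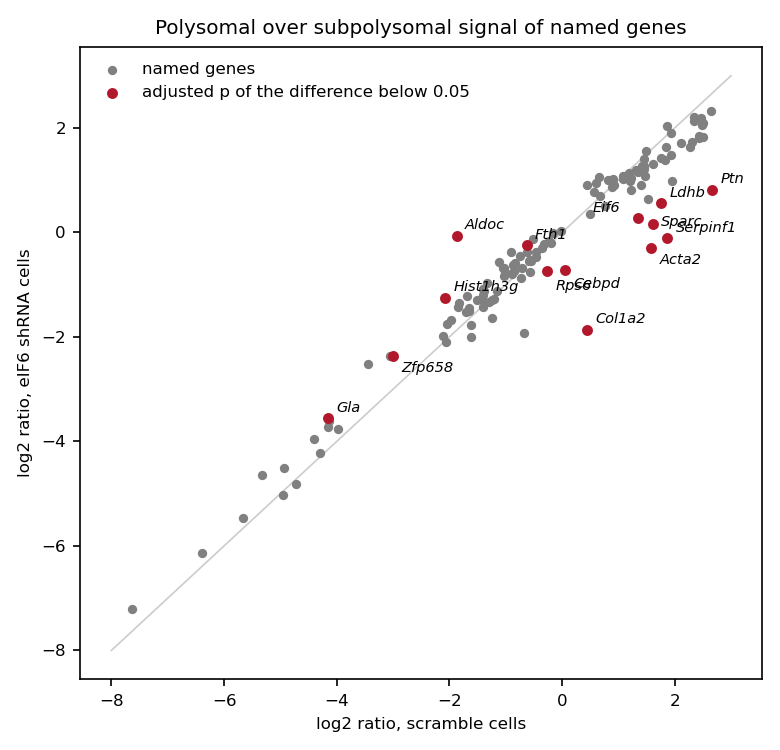
Log2 polysomal over subpolysomal signal in eIF6 shRNA cells (vertical axis) against scramble cells (horizontal axis) for the 129 named genes that were well above background on all 8 scramble arrays, with the line of equality. The 14 genes whose difference had an adjusted p below 0.05 are named, and the small nuclear RNAs and Malat1 lie near the line at the lower left.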

How the data were processed

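RNA of polysomal and subpolysomal gradient fractions was hybridized on one-colour Agilent arrays. For every array the authors deposited spot intensity values from which the scanner software had removed background but which had not been normalized against other arrays, and a table of log2 values that they had quantile normalized. The submitters' processing notes name Agilent Feature Extraction 10.7.7.1, whereas the file headers name 10.7.3.1, with scanning at 5 micrometres. Each array had 44397 spots and 39429 different probes. The 16 arrays lay on 4 slides, each with 1 array of every group.

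Here the deposited intensities were processed in R 4.3.3 with the data.table package (1.17.8). Flagged spots were left out (45 values of kept probes missing, and genes with a missing value were fitted on the remaining arrays), the spots of a probe were averaged, and 25260 probes were kept, those detected above background by the scanner software on 2 or more arrays of any group, and were quantile normalized on the log2 scale over all 16 arrays and averaged per gene name. limma 3.58.1 was fitted with 4 group means. The contrast of the 8 scramble arrays was tested over 19365 genes with Benjamini-Hochberg adjustment, and the procedure was tested on simulated data.

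Genes were named by rule: the 12 highest and 12 lowest called gene symbols with kept probes above background on all 8 arrays and no overlap, the highest and lowest such member of each list whether called or not, a set of single genes, and the 4 highest and 4 lowest noncoding accessions. Other list members are given as examples. The gene lists, the rule and the comparison were chosen with earlier results of these data known. RNA classes were taken from accessions and the RefSeq table (GRCm38.p6), probe coordinates (mm9) from the files. Protein lengths were not used here. Some list members that the rule names are not reported here. The alternatives were 75th percentile and spike-in scaling (7 probes), normexp (offset 50), 3 other filters, the brightest probe, the authors' log2 table, the 8 scramble arrays alone, the slide or the replicate number as a block, and each replicate left out. For lists and single genes, values under another setting had the shift in the median of all genes removed. Calls of single genes under another setting were made on the values before this removal. Figures were drawn with matplotlib.

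The deviations of same-numbered polysomal and subpolysomal arrays from their group means correlated at -0.157 to -0.003, and those of arrays on the same slide at 0.046 to 0.253. These values cannot show whether arrays of equal number come from one gradient. The main test treated the arrays as unpaired, and the replicate number was used as a block among the alternatives.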

Additional observations from a re-analysis of the deposited data

Results flagged for a closer look

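In 18 of 264 groups of 4 arrays, 1 value of a named gene lay far from the other 3 by Dixon's criterion, where chance gives about 1 in 20. On subpolysomal replicate 1 these were Tceal5 (log2 signal 5.02, others 5.51 to 5.60), Fasn (6.96, others 7.19 to 7.24) and Fn1 (14.04, others 13.83 to 13.85). On subpolysomal replicate 4 they were Snora74a (11.17), Hmgb1-rs17 (11.88), Itgb5 (11.98), Dnajc3 (7.19), Sat1 (10.96), Tug1 (8.57) and Jun (13.21). On polysomal replicate 3 they were Dancr (8.58) and Thbs1 (11.53), and on polysomal replicate 4 Gstt3 (8.89), Psmd1 (12.94), Acat2 (4.96), Ier3 (12.99), Mcm7 (13.85) and Tpt1 (18.12).

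For 14 of the 132 named genes the log2 ratio differed between eIF6 shRNA and scramble cells by limma's interaction term. Most named genes were chosen for a high or low ratio in scramble cells, which favours differences towards the middle. The difference was below 0 for Col1a2 (-2.31, from 0.45 in scramble to -1.86 in eIF6 shRNA cells), Serpinf1 (-1.98), Acta2 (-1.87), Ptn (-1.86), Sparc (-1.45), Ldhb (-1.20), Eif6 itself (-1.07), Cebpd (-0.78) and Rps6 (-0.48). It was above 0 for Aldoc (1.81), Hist1h3g (0.82), Zfp658 (0.65), Gla (0.61) and Fth1 (0.39).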

How the results depend on the processing

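With 75th percentile scaling 8478 genes were lower, and with spike-in scaling 12661 were higher and 413 lower. The same list and gene values followed from either scaling once the shift of all genes was removed, and these reversed: the median of the aminoacyl-tRNA synthetases (0.22), ribosome biogenesis (0.21), the polyamine pathway (0.14), chemokines and cytokines (0.08) and bile duct and progenitor markers (0.11), and the ratios of Neu1 (0.15) and Actb (-0.30). With the brightest probe of each gene, the ribosomal protein median (0.08), H2afj (0.33), Dad1 (0.80), Cdkn1a (0.16) and Rps6 (0.09) reversed. Among genes detected on all 8 arrays the fibroblast marker median was 0.01, and the chaperone median was between -0.06 (without replicate 4) and 0.35 when 1 replicate was left out. The cause of these changes was not tested. Leaving out 1 replicate gave 5222 to 6222 higher and 4754 to 5688 lower genes, and leaving out only subpolysomal replicate 1, an alternative chosen after seeing the data, gave 5751 and 5165. With the replicate number as a block, 5447 were higher and 4965 lower, and the calls of Acat2, Col1a1, Jun, Odc1, Rps6 and Tpt1 were lost. Pecam1 lost its call without replicate 3 (-0.40). The correlation with eIF6 shRNA cells was 0.941 with normexp, 0.919 and 0.937 with the stricter filters and 0.819 with no filter. Of the named gene values under all alternatives, 1988 kept direction and call, or stayed within the spread of the arrays where not called. Another 95 lost the call or were called the other way before the shift was removed. A call, in either direction before that removal, was gained by 14, while 5 with no call moved and 8 reversed. Dim signals near background limit the precision at the low end of the intensities.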
